A study of Mus musculus with 48 samples.

Results

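Type 2 immunity genes were followed in tumor-infiltrating and lymph node leukocytes of mice with and without Yap in T cells. The 6 genes Gata3, Il4, Il5, Il13, Il1rl1 and Areg were chosen by name from 34932 genes, as the transcription factor, the cytokines, the interleukin-33 receptor and the growth factor that mark type 2 lymphocytes, and each was examined in all 48 libraries. RNA came from sorted CD4+ T cells, sorted CD8+ T cells and the CD45+CD4-CD8- remainder from B16F10 melanomas (tumor-infiltrating lymphocytes, TILs) and from tumor-draining inguinal lymph nodes (TDLNs), with 4 libraries in each of 12 groups. The mice were C57BL/6J, 6 to 10 weeks old, and carried B16F10 cells injected under the skin. Yap-cKO mice carried loxP-flanked Yap on both chromosomes, a Cre transgene driven by Cd4 regulatory sequence and an EYFP reporter behind a loxP-flanked stop. This Cre acts when thymocytes express both CD4 and CD8, so that deletion reaches CD4+ and CD8+ T cells alike, regulatory T cells included, and the CD45+CD4-CD8- sort is for the most part not its target. WT mice were littermates, and the alleles that individual WT mice carried are not given in the sources used here. T cells were sorted from each tumor, but whether a deposited library is 1 mouse is not stated, so p-values measure the spread between the 4 libraries of a group.

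In type 2 immunity, interleukin-33 released by damaged tissue binds ST2, the product of Il1rl1, on T helper 2 cells, group 2 innate lymphoid cells, mast cells and a subset of regulatory T cells in tissues. GATA3 is the transcription factor that T helper 2 and group 2 innate lymphoid cells depend on, and it acts at the cluster of Il4, Il13 and Il5. It is also made at lower levels in other T cells. Interleukin-5 sustains eosinophils, interleukin-4 and interleukin-13 act on B cells, macrophages and epithelia, and amphiregulin, the product of Areg, is a ligand of the epidermal growth factor receptor linked to tissue repair.

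Il4, Il13 and Il5 lie beside each other on chromosome 11 of GRCm38, at chr11:53602982-53618669, chr11:53631324-53634702 and chr11:53720794-53725106. Gata3 is at chr2:9857078-9890034, Il1rl1 at chr1:40429570-40465415 and Areg at chr5:91139599-91148432. Promoter sequence is shown for Il5, Il13 and Il1rl1, the members with the largest differences between genotypes in CD4+ TILs, with GATA-type words in capitals. Each run is the 250 bases before a start site, 5′ to 3′ on the strand of the gene, from RefSeq on GRCm38.p6. Il1rl1 has a distal start, that of Il1rl1-205, a transcript of the soluble receptor, and a proximal start beside that of Il1rl1-202, a transcript of the membrane receptor. The more abundant membrane transcript, Il1rl1-201, starts further downstream, and its promoter is not shown.
Il5, chr11:53720544-53720793, plus strand: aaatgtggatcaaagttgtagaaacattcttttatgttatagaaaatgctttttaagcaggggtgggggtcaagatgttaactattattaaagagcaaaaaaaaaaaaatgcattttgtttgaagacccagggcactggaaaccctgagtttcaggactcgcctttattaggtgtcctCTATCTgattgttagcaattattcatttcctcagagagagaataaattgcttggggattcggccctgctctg
Il13, chr11:53634703-53634952, minus strand: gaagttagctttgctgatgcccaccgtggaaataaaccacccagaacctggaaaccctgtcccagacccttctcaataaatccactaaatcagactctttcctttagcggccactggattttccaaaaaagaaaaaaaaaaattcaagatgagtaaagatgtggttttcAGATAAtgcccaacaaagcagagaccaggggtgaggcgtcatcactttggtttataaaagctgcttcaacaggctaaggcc
Il1rl1 distal start, chr1:40429320-40429569, plus strand: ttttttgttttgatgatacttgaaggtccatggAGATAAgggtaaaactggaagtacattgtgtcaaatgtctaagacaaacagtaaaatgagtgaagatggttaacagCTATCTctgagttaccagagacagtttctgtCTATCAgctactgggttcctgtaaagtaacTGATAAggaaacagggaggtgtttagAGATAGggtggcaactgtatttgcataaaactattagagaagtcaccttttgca
Il1rl1 proximal start, chr1:40439379-40439628, plus strand: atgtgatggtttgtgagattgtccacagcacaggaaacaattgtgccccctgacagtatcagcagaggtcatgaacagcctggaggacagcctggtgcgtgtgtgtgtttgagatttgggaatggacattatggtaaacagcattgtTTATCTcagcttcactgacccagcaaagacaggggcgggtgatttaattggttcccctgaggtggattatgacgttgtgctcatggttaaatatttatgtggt
The words searched, on both strands, were AGATA followed by A or G, and likewise TGATA followed by either of these bases. Of all 32851 mouse promoters of this length, 26.5% held at least 1 such word. Among the 8 promoters that the table lists for the members, 5 held a word. The Il5 word began 72 bases and the Il13 word 81 bases before the start site. The distal Il1rl1 promoter held 5 words and the proximal promoter 1. The Gata3 and Areg promoters held none, nor did the promoter of the Il4 transcript that encodes the full 140 residues, and a second Il4 start held 1 word. An AP-1 site (TGANTCA) was in 0 of the 8 promoters and in 6.75% of all promoters. The core of the NFAT site (GGAAA), which 55.6% of all promoters held, was in 7 of the 8, with 5 copies before the full-length Il4 start and 4 before Il13. Matches of the different motifs did not overlap (0 overlaps). These are matches of letters in a short window, and binding was not measured.

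Each library had 12656302 to 24213689 counts on genes. In CPM, which are counts scaled to a common library depth, 3 counts were worth 0.124 to 0.237 CPM, below which values were not told apart from 0. Yap1, the targeted gene, was at 14.2 to 25.4 CPM in WT and 1.71 to 5.70 CPM in Yap-cKO CD4+ TILs, and at 12.6 to 25.2 and 2.43 to 6.48 CPM in CD8+ TILs. In CD45+CD4-CD8- TILs, for the most part not a target of the Cre, it was at 2.80 to 5.40 CPM in WT and 1.48 to 2.09 CPM in Yap-cKO mice, a difference of -1.20 (log2, adjusted p = 0.0773, edgeR). In TDLN cells it was at 1.10 to 4.36 CPM and was not called in any population. Y-linked Ddx3y and Eif2s3y were above 5 CPM in 18 libraries, which are WT replicates 1 to 3 of every population, and in 0 of the other 30 libraries. Such genes mark male cells, and the labels give no sex, so that sex and genotype may be confounded in every genotype comparison. WT replicate 4 is the only WT library of each population that matches the Yap-cKO libraries in these genes. Melanoma transcripts were higher in WT than in Yap-cKO TIL libraries: 9 melanoma genes summed to 6440 to 19349 CPM in WT and to 251 to 2993 CPM in Yap-cKO CD4+ TILs. The 15 T-lineage genes summed to 1494 to 6066 CPM in WT and to 6764 to 10861 CPM in Yap-cKO CD4+ TILs. In such bulk libraries, fewer cells of a type and less RNA per cell cannot be told apart.

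In CD4+ TILs, 5 of the 6 type 2 genes were higher in Yap-cKO than in WT mice. Called means past a log2 fold change of 1 in size and an adjusted p below 0.05, by the quasi-likelihood test of edgeR (Benjamini-Hochberg, 4 libraries per genotype), and 1.36% of the 14205 genes tested were called higher. The members called were Gata3, Il5, Il13, Il1rl1 and Areg, and Il4 was not called. Il13 passed the count filter only through the Yap-cKO libraries. It is therefore no support for the count called, for the median below or for the count without overlap. The median log2 fold change of the 6 members was 2.99, against 0.14 for all genes tested. WT and Yap-cKO libraries did not overlap for 4 of the 6 members, Gata3, Il5, Il13 and Areg, and 6.19% of all genes tested were higher without overlap.

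Gata3, the lineage transcription factor, stood at 27.2, 54.1, 91.5 and 90.8 CPM in the WT CD4+ TIL libraries, in replicate order, and the Yap-cKO libraries gave 381, 286, 127 and 204 CPM. Every Yap-cKO library lay above every WT library, with Yap-cKO replicate 3 nearest to them. On the log2 scale Gata3 was higher by 1.88 (SE, the standard error, 0.449, adjusted p = 0.0288 by edgeR). With libraries scaled on T-lineage genes, which moved the median of all genes from 0.14 to -1.15, the values were 1.01 for Gata3 (adjusted p = 0.138), 5.92 for Il5, 3.80 for Il13, 2.47 for Il1rl1 and 1.79 for Areg (adjusted p = 0.0647), and Gata3 and Areg lost their calls.

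Il5 was the member with the largest difference and the widest spread. WT replicates held 0.162, 1.12, 1.05 and 1.51 CPM of it, and Yap-cKO replicates held 341, 10.7, 6.50 and 51.5 CPM. In counts, 3 to 31 reads per WT library stood against 5808, 198, 106 and 974 in the Yap-cKO libraries. All 4 Yap-cKO libraries were above all WT libraries, but replicate 1 alone held most of the group's Il5 reads. This gave a log2 fold change of 6.65 (SE 1.30, adjusted p = 0.0144 by edgeR), or 100.2-fold. Without Yap-cKO replicate 1 it fell to 4.57, with an adjusted p of 0.0213 (edgeR).

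Il13 showed 0.162, 0.0467, 0.552 and 0.147 CPM across WT replicates, against 16.9, 0.595, 4.11 and 3.33 CPM across Yap-cKO replicates. WT libraries held 1 to 11 reads, so most WT values were near or below the level of 3 counts. Yap-cKO replicate 2 and WT replicate 3 each held 11 reads, and only scaling set their CPM apart. Its log2 fold change was 4.71 (SE 1.02, adjusted p = 0.0195 by edgeR). The pooled counts, 429 against 18, gave a ratio of 27.1 (95% exact interval 16.9 to 46.1, counting error only).

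Il4 differed less. Levels of 1.40, 2.29, 2.96 and 3.86 CPM in WT replicates compared with 6.23, 1.84, 6.01 and 7.72 CPM in those of Yap-cKO mice. Yap-cKO replicate 2 lay within the WT range and the other 3 lay above it. The difference of 1.04 (log2, SE 0.514) did not pass the test (adjusted p = 0.239 by edgeR), and with libraries scaled on T-lineage genes the sign turned to -0.02. Much of the Il4 signal was assigned to short transcripts: the transcript for the full protein, Il4-201, made up 12.4% of Il4 TPM (a level per length and depth) in WT and 28.1% in Yap-cKO CD4+ TILs.

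Per length, the order of these cytokines differed between genotypes. In WT CD4+ TILs, Il4 was the most abundant of the 3 in every library, at 4.74 to 16.4 TPM, against 0.159 to 1.81 TPM for Il5 and 0.0657 to 0.737 TPM for Il13. In Yap-cKO CD4+ TILs, Il5 exceeded Il4 in replicates 1, 2 and 4, with 373 against 22.9, 12.3 against 7.03 and 51.2 against 26.9 TPM. Replicate 3 kept the WT order per length, with 4.65 TPM of Il5 against 15.2 TPM of Il4. In reads it held 106 of Il5 and 98 of Il4. The Il4 values sum all its transcripts, and in WT libraries Il4-201 held a mean of 6.76 counts, against 19.75 for Il5. The order per length is thus not shown for the full-length Il4 transcript.

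**Figure D1:**
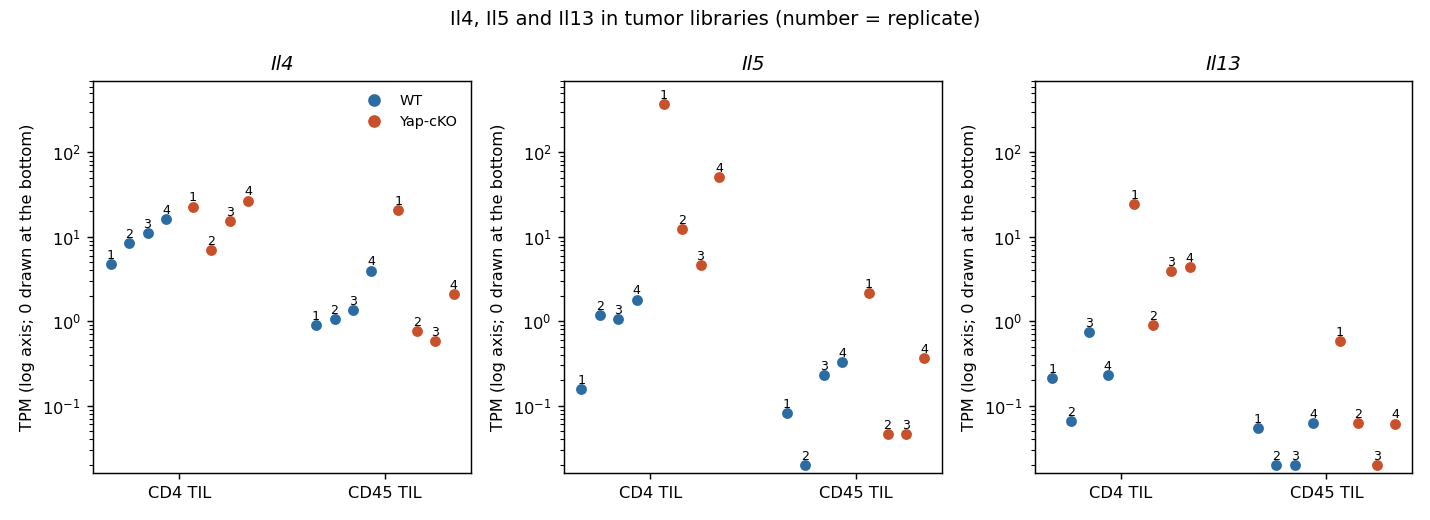
Il4, Il5 and Il13 in TPM (log axis) in CD4+ and CD45+CD4-CD8- cells from tumors, with each point a library and its replicate number above it. Il5 in the Yap-cKO CD4+ TIL libraries spans 4.65 to 373 TPM, and in the CD45 sort Yap-cKO replicate 1 stands above the others for all 3 genes.

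Il1rl1, the receptor gene, gave 4.96, 10.7, 14.9 and 17.8 CPM in WT CD4+ TILs, by replicate, and 335, 89.9, 13.8 and 65.2 CPM without Yap. Yap-cKO replicate 3 lay inside the WT range, and the other 3 libraries lay above it. Il1rl1 was higher by 3.31 (log2, SE 0.797, adjusted p = 0.0296 by edgeR).

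For Areg, WT replicates measured 11.98, 31.0, 45.1 and 18.2 CPM, while Yap-cKO replicates measured 442, 137, 50.3 and 65.8 CPM. The genotypes did not overlap, with Yap-cKO replicate 3 close to WT replicate 3. The fitted difference was 2.66 on the log2 scale (SE 0.678, adjusted p = 0.0371 by edgeR).

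Yap-cKO replicate 1 was the highest library of its group for 5 of the 6 members in CD4+ TILs. Leaving out 1 library at a time changed the number of members called from 5 to between 0 and 5. It was 0 without WT replicate 1 or without WT replicate 2, and 2 without WT replicate 4 or without Yap-cKO replicate 1, 2 or 4. The number of all genes called higher moved as well, from 193 to 27 without WT replicate 1, 25 without WT replicate 2 and 1176 without Yap-cKO replicate 3. All log2 fold changes kept their sign in these fits, and Il5 stayed between 4.57 and 7.03. With WT replicate 4 as the only WT library, edgeR called 0 of 12987 genes, so this comparison could call no member, and the members' log2 fold changes were 1.33 for Gata3, 0.37 for Il4, 5.96 for Il5, 5.22 for Il13, 2.70 for Il1rl1 and 3.13 for Areg. With a Y-linked covariate edgeR called 2 of 14205 genes and no gene higher, so the 0 members called there say nothing about the members. Their log2 fold changes were then 0.53 for Il4, 1.60 for Gata3, 2.85 for Il1rl1, 3.19 for Areg, 5.28 for Il13 and 5.96 for Il5.

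**Figure D2:**
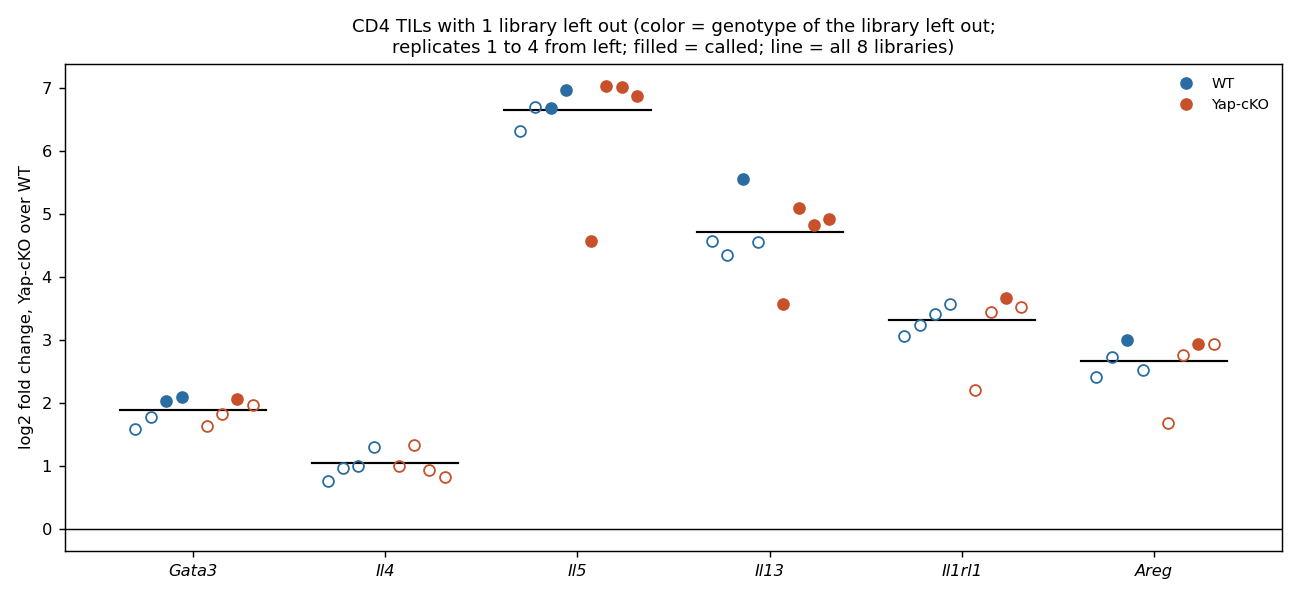
Log2 fold change of each member between Yap-cKO and WT CD4+ TILs with 1 library left out, colored by the genotype of the library left out and ordered by replicate. Filled points were called and the line is the value with all 8 libraries; leaving out Yap-cKO replicate 1 lowers Il5 to 4.57, Il13 to 3.57, Il1rl1 to 2.20 and Areg to 1.67.

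Markers of regulatory T cells moved with these genes. All 8 genes of a regulatory T cell list had positive log2 fold changes in CD4+ TILs, where the median of all genes tested was 0.14. Called higher were 4 of them, where 1.36% of all genes were: Foxp3 (1.57), Klrg1 (2.17), Tnfrsf18 (1.48) and Tnfrsf4 (1.62). The 8 genes summed to 748 to 2021 CPM in WT and 4096 to 4880 CPM in Yap-cKO libraries. The 15 T-lineage genes were higher there as well, at 1494 to 6066 and 6764 to 10861 CPM. Foxp3, the regulatory T cell lineage factor, measured 75.5, 189, 244 and 162 CPM across WT and 602, 539, 403 and 472 CPM across Yap-cKO replicates.

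Relative to Foxp3 in the same library, Il5 was the only 1 of the 6 members whose genotypes did not overlap, and 0.0704% of the 14205 genes tested were higher without overlap on this scale. Its ratio to Foxp3 was 0.00214 to 0.00934 in WT and 0.0161 to 0.567 in Yap-cKO CD4+ TILs. Gata3 stood at 0.287 to 0.56 times the Foxp3 level in WT and at 0.314 to 0.633 times in Yap-cKO libraries. The Il1rl1 ratio was 0.0567 to 0.11 in WT and 0.0342 to 0.556 in Yap-cKO libraries, and the Areg ratio was 0.112 to 0.185 and 0.125 to 0.733. Yap-cKO replicate 1 gave the highest ratio for Gata3, Il5, Il13, Il1rl1 and Areg. Relative to the summed T-lineage genes, Il5 was again the only member without overlap, where 0.268% of genes were. Whether the regulatory T cell signal accounts for any of these differences was not tested.

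**Figure D3:**
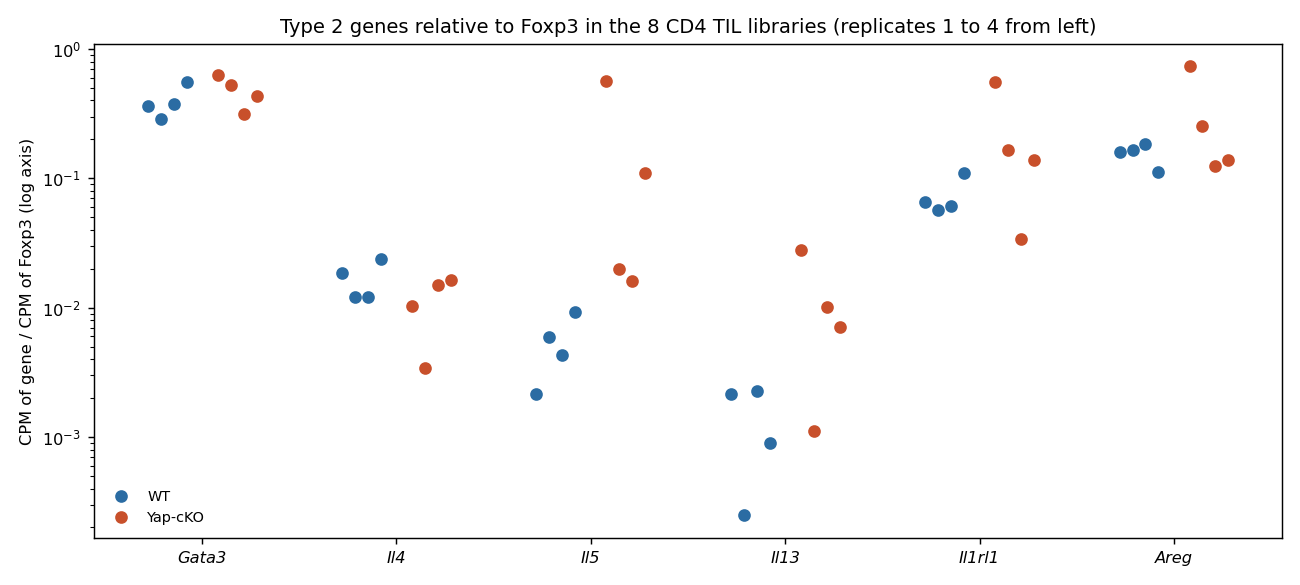
CPM of each member divided by the CPM of Foxp3 (log axis) in the 4 WT and 4 Yap-cKO CD4+ TIL libraries, in replicate order. WT and Yap-cKO points overlap for each gene but Il5, whose ratio is at most 0.00934 in WT and at least 0.0161 in Yap-cKO libraries.

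Markers of other cells that can make these transcripts were examined in the CD4+ TIL sort. Of 12 mast cell and basophil genes, Mcpt4, Cma1, Tpsb2, Fcer1a and Prss34 held at most 3 counts in every CD4+ TIL library. The summed level of that list was 16.9 to 27.1 CPM in WT and 17.6 to 325 CPM in Yap-cKO libraries. Its highest value, in Yap-cKO replicate 1, came from Hdc at 312 CPM, the enzyme that makes histamine. Of 8 eosinophil genes, the granule genes Epx, Ear1 and Ear6 held at most 3 counts in every CD4+ TIL library. The list summed to 3.02 to 6.42 CPM in WT and 8.27 to 26.3 CPM in Yap-cKO libraries. Of its mean of 18.8 CPM in Yap-cKO libraries, Ccr3 held 16.99 CPM. A list of 10 genes of group 2 innate lymphoid cells summed to 155 to 302 CPM in WT and to 352 to 1646 CPM in Yap-cKO libraries. In the Yap-cKO CD45+CD4-CD8- TIL sort the list summed to 553 to 1585 CPM (mean 954), of which Arg1 held a mean of 829. In Yap-cKO CD4+ TILs most of the sum was Klrg1, Il2ra and Rora (means 356, 264 and 250 CPM), so these sums rest on different genes. Of its genes, Il2ra, Klrg1, Il9r and Rora are also made by T cells. Nmur1 was at 0.733 to 2.16 CPM in WT and 5.74 to 6.68 CPM in Yap-cKO CD4+ TILs. Calca was at 0.108 to 4.36 and 4.98 to 57.4 CPM. Both were higher without overlap, as were 6.19% of all genes tested. Il9r was higher without overlap too, at 2.97 to 13.1 CPM in WT and 21.3 to 33.3 CPM in Yap-cKO CD4+ TILs. Klrg1 was at 37.8 to 135 and 214 to 440 CPM, also without overlap. Il2ra, Rora and Il17rb had higher means in Yap-cKO libraries, with overlapping ranges. The remaining genes of the list did not follow. Kit tended lower in Yap-cKO than in WT CD4+ TILs, Arg1 had similar means and Ptgdr2 was near 0. The part of these cells in the members' levels was not tested.

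Il1rl1 encodes a membrane receptor of 567 residues and a soluble form of 337 residues that lacks the membrane part, each with 2 annotated transcripts. A further transcript of 65 residues, Il1rl1-204, belongs to neither form but counts in the total. It took 6.92% of Il1rl1 TPM in WT and 9.24% in Yap-cKO CD4+ TILs. In CD4+ TILs the membrane form measured 1.02, 2.69, 3.34 and 4.40 TPM across WT and 83.3, 22.7, 1.93 and 13.4 TPM across Yap-cKO replicates. The soluble form measured 0.891, 1.47, 2.74 and 4.58 TPM across WT and 61.2, 20.8, 2.88 and 15.7 TPM across Yap-cKO replicates. Both forms were higher in Yap-cKO replicates 1, 2 and 4 than in any WT library, and replicate 3 lay in the WT range for both. The membrane form made up 43.0% to 64.6% of Il1rl1 TPM in WT and 40.1% to 53.3% in Yap-cKO CD4+ TILs, with overlapping ranges. In CD4+ TDLN cells its share was 52.7% to 75.1% in WT and 58.4% to 86.2% in Yap-cKO mice. The distal transcript Il1rl1-205, whose promoter held the 5 GATA-type words, took 28.1% of Il1rl1 TPM in WT and 31.4% in Yap-cKO CD4+ TILs. Shares of transcripts that overlap are estimates by Salmon, and the number of reads that tell them apart is not known.

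In CD8+ TILs, Gata3 was the 1 member called higher among the 3 that passed the count filter, where 3.03% of 14121 genes were called higher. WT replicates held 9.999, 15.3, 32.2 and 19.0 CPM of Gata3, and Yap-cKO replicates held 79.2, 49.4, 48.3 and 42.2 CPM, without overlap (10.7% of genes were higher without overlap). Gata3 was higher by 1.43 (log2, SE 0.348, adjusted p = 0.0287 by edgeR), and by 0.45 with libraries scaled on T-lineage genes. That scaling moved the median of all genes in CD8+ TILs from 0.08 to -1.12. In the same CD8+ TIL libraries the T-lineage sum was 1671 to 5258 CPM in WT and 6053 to 7104 CPM in Yap-cKO mice, the melanoma sum 4366 to 15525 and 83.0 to 3066 CPM, and the sum of 8 macrophage genes 259 to 600.0 and 727 to 1986 CPM. Their part in the Gata3 difference was not tested. Il1rl1 was at 0.414 to 3.30 CPM in WT and 1.66 to 3.74 CPM in Yap-cKO CD8+ TILs, with a log2 fold change of 0.78 (adjusted p = 0.394, edgeR). Areg was at 0.497 to 6.37 and 2.63 to 7.06 CPM, with a log2 fold change of 0.54 (adjusted p = 0.615, edgeR). Il4, Il5 and Il13 held at most 5, 1 and 3 counts in any CD8+ TIL library and were not tested.

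In CD45+CD4-CD8- cells of tumors, Gata3 was again the 1 member called higher of 3 tested, where 0.066% of 13628 genes were called higher. Values of 2.51, 3.43, 2.90 and 4.36 CPM across WT replicates stood against 10.3, 8.93, 8.94 and 6.86 CPM across Yap-cKO replicates, without overlap (4.35% of genes were higher without overlap). Gata3 was higher by 1.39 (log2, SE 0.245, adjusted p = 0.036 by edgeR), and the call held in only 1 of the 8 fits that left out a library, that without Yap-cKO replicate 4. In this sort Foxp3 was at 0.188 to 0.966 CPM in WT and 1.38 to 2.04 CPM in Yap-cKO libraries, or 3 to 14 and 22 to 31 counts. All 8 regulatory T genes had positive log2 fold changes with 0 called. The 15 T-lineage genes summed to 200 to 234 CPM in WT and 199 to 247 CPM in Yap-cKO libraries, and 6 B cell genes to 871 to 1729 and 233 to 893 CPM. Their part in the Gata3 difference was not tested. Il1rl1 measured 3.64, 6.62, 11.04 and 2.55 CPM across WT replicates, and 15.3, 9.88, 9.75 and 9.96 CPM across Yap-cKO replicates. WT replicate 3 lay within the Yap-cKO range, and the log2 fold change was 0.90 (adjusted p = 0.284, edgeR). Areg was at 5.05 to 50.9 CPM in WT and 18.2 to 49.5 CPM in Yap-cKO libraries, with a log2 fold change of 0.47 (adjusted p = 0.724, edgeR).

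In the same sort, the cytokine genes stood out in a single library. Il4 held 139 counts in Yap-cKO replicate 1, against 4 to 14 in the other Yap-cKO and 6 to 25 in the WT libraries. Il5 held 49 counts there against 1 to 8 and 0 to 7, and Il13 held 10 against 0 to 1 in both genotypes. Yap-cKO replicate 1 was the highest Yap-cKO library for all 6 members in this sort.

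That library was also the highest of the sort for several mast cell and basophil transcripts. Cpa3 was at 11.99 CPM there against at most 4.40 CPM elsewhere, Cma1 at 29.9 against at most 9.99 CPM, Tpsb2 at 23.2 against at most 4.67 CPM and Mcpt8 at 6.82 against at most 1.72 CPM. Hdc, Kit, Ms4a2 and Cd200r3 of the same list were not highest there, and the 12 genes of the list summed to 130 to 190 CPM in WT and 151 to 265 CPM in Yap-cKO libraries of the sort. Their part in its Il4 was not tested. The cytokine makeup differed from that of the CD4+ TIL library with the same number: 0.353 Il5 reads per Il4 read in the CD45 sort, and 54.8 in CD4+ TILs.

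**Figure D4:**
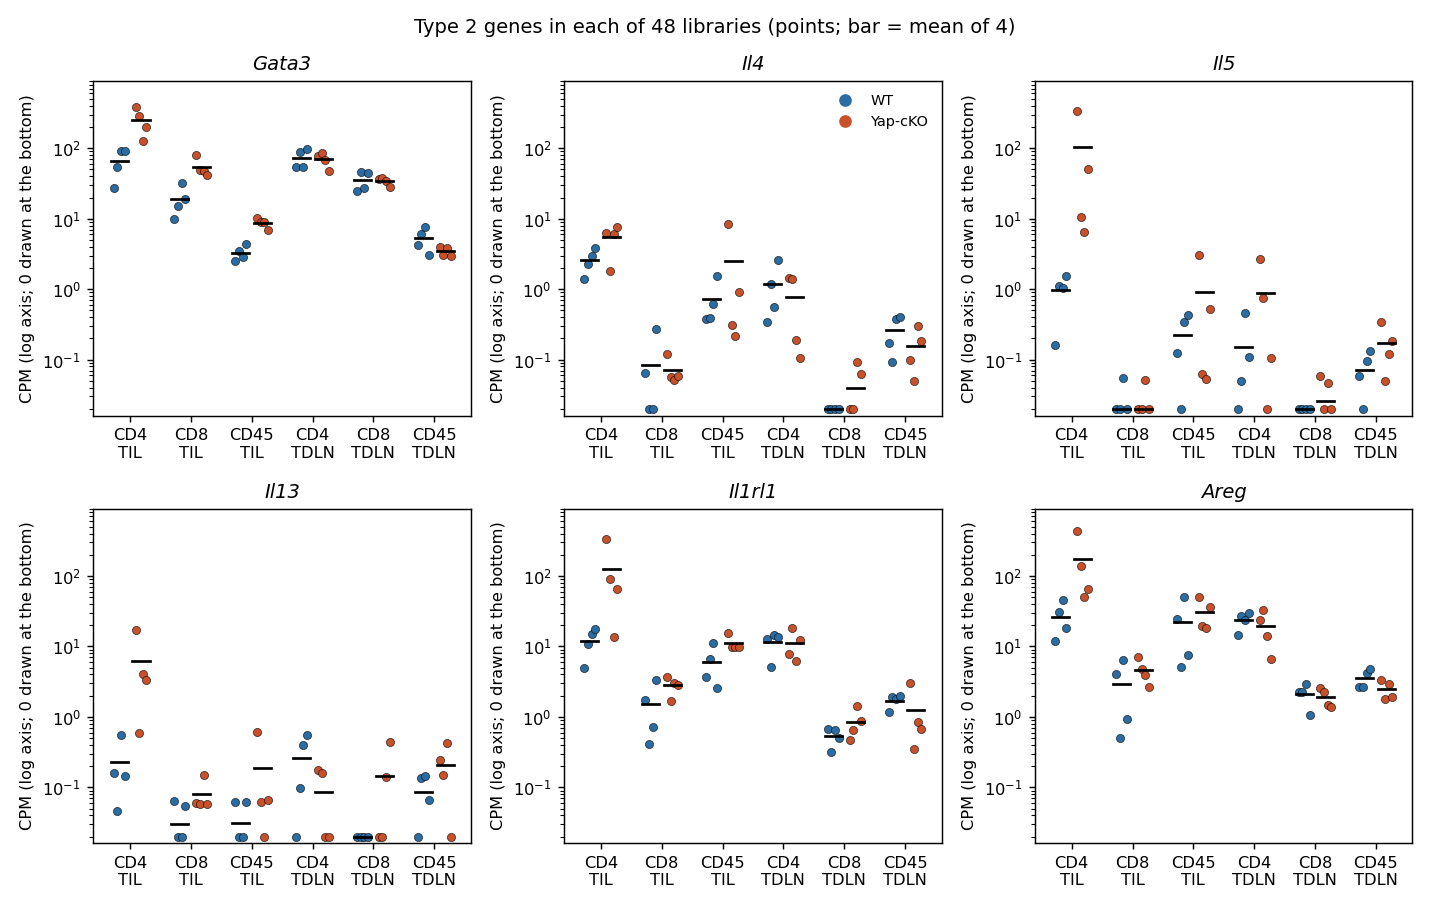
CPM of the 6 members (log axis, 0 drawn at the bottom) in each of 48 libraries, by sorted population and tissue, with a bar at the mean of 4. In CD4+ TILs the Yap-cKO points lie above all WT points for Gata3, Il5, Il13 and Areg, most widely for Il5 (6.50 to 341 CPM). For Il4 and Il1rl1 a Yap-cKO point lies in the WT range. Gata3 also separates in CD8+ and CD45+CD4-CD8- TILs, while WT and Yap-cKO points mix in TDLNs.

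In TDLNs none of the members was called in any population. The members tested were 4 in CD4+, 3 in CD8+ and 3 in CD45+CD4-CD8- cells, and 0 were called by edgeR's quasi-likelihood test or by DESeq2, with 0 at an unadjusted p under 0.05. Genes called either way made up 0.0462%, 0.0158% and 0.0596% of those tested in these populations. Gata3 was at 54.1, 88.1, 54.5 and 97.2 CPM across WT replicates of CD4+ TDLN cells, against 77.0, 85.1, 69.1 and 47.2 CPM without Yap, and differed by -0.05 (log2, SE 0.255). Il1rl1 was at 5.05 to 14.7 and 6.18 to 18.3 CPM there, with a log2 fold change of -0.03 (SE 0.414), and Areg was at 14.5 to 29.5 and 6.56 to 32.9 CPM, with -0.29 (SE 0.411). Il4 measured 0.346 to 2.64 CPM across WT and 0.107 to 1.42 CPM across Yap-cKO libraries, with a log2 fold change of -0.62 (SE 0.814). Il5 reached 45 and 14 counts in Yap-cKO replicates 1 and 2 of CD4+ TDLN cells, and 0 to 8 counts in the other 6 libraries. In CD8+ TDLN cells Gata3 was at 24.7 to 46.4 CPM in WT and 27.8 to 38.3 CPM in Yap-cKO mice, and Il4, Il5 and Il13 were at 0 in every WT library of that population, which allows up to 3 counts, or 0.237 CPM at the lowest depth of any library. In CD45+CD4-CD8- TDLN cells Gata3 was at 3.11 to 7.68 CPM with Yap and 2.99 to 3.96 CPM without it, and differed by -0.57 (log2, SE 0.332).

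**Figure D5:**
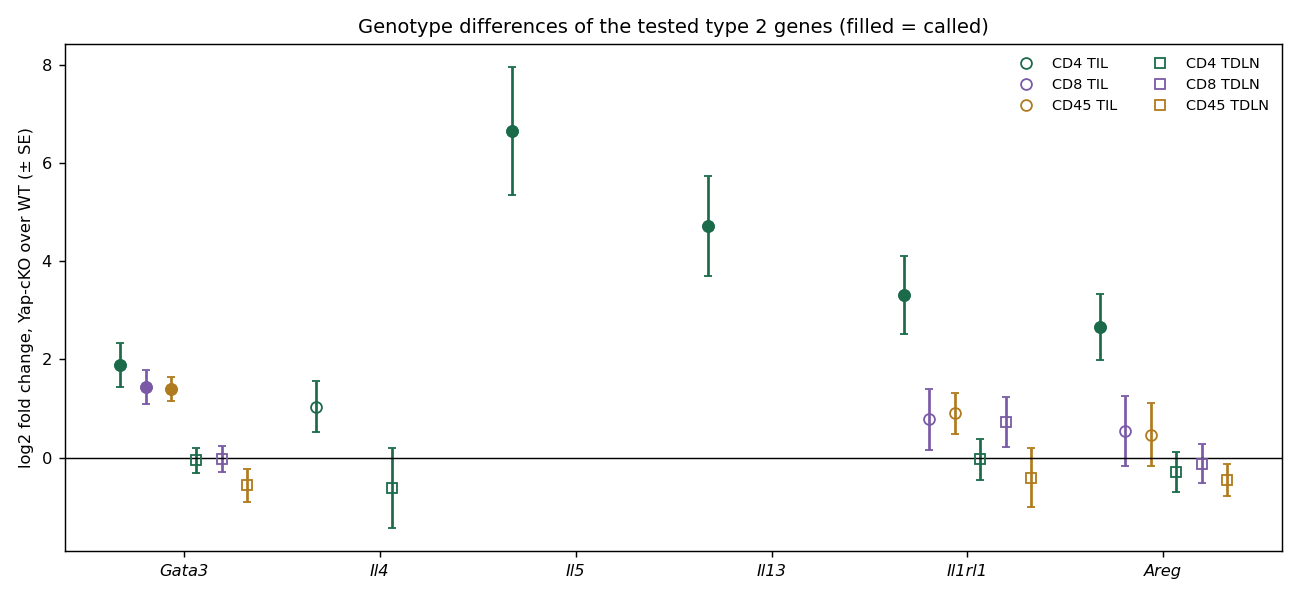
Log2 fold change between Yap-cKO and WT (with standard error) of each member that passed the count filter, in CD4+, CD8+ and CD45+CD4-CD8- cells of TILs (circles) and TDLNs (squares). Filled symbols were called, which are 5 members in CD4+ TILs and Gata3 in CD8+ and CD45+CD4-CD8- cells of tumors; the TDLN values lie between -0.62 and 0.72.

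The tumor was also compared with the lymph node within each genotype. These comparisons share libraries with the genotype comparisons and give another view of the same values. In WT CD4+ cells 0 of 4 members tested were called, with 0 at an unadjusted p under 0.05, 0 by DESeq2 and 4 with T-lineage scaling, while 37.3% of 14009 genes were called. Gata3 differed by -0.08 (log2, SE 0.368), Il4 by 1.21 (0.608), Il1rl1 by 0.14 (0.438) and Areg by 0.23 (0.385). In Yap-cKO CD4+ cells 6 members were called higher in TILs, where 12.4% of 13565 genes were. Of these, Il13 passed the count filter only through the TIL libraries. Il4 and Il5 reached its minimum count only in replicates 1 and 2 of the TDLN libraries, so they needed TIL libraries too. The calls of Il4, Il5 and Il13 are therefore no support for the count of 6. Il5 differed by 6.82 (SE 1.57, adjusted p = 0.0114), Il1rl1 by 3.45 (0.805, adjusted p = 0.0121) and Areg by 3.11 (0.732, adjusted p = 0.0126) on the log2 scale, by edgeR. Il4 differed by 2.75 (0.780, adjusted p = 0.0304) and Gata3 by 1.79 (0.375, adjusted p = 0.00737). Without Yap-cKO replicate 1 of the TILs, Il5 fell to 4.71, Il1rl1 to 2.32 and Areg to 2.10, all still called, and Il4 lost its call without TIL replicate 4 or TDLN replicate 3 or 4 and with the replicate block (highest adjusted p = 0.0802, edgeR). Il13 had 6 counts in all 4 Yap-cKO CD4+ TDLN libraries together, and the ratio of pooled counts was 76.2 (95% exact interval 34.7 to 209, counting error only).

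The difference between these tissue contrasts was tested as an interaction of tissue and genotype over 16 libraries. In CD4+ cells 0 of 6 members were called by edgeR, 4 had an unadjusted p under 0.05 and 4 were called by DESeq2, while 1.36% of 15087 genes were called. The interaction was 1.93 for Gata3 (SE 0.535, adjusted p = 0.0779), 3.34 for Il1rl1 (0.943, adjusted p = 0.0836) and 2.95 for Areg (0.847, adjusted p = 0.0885). It was 4.18 for Il5 (2.12, adjusted p = 0.377) and 1.66 for Il4 (1.03, adjusted p = 0.492). The value for Il13, 6.29 (1.61, adjusted p = 0.0609), depends on the prior count, since 1 arm held at most 3 counts per library. A genotype difference that is particular to tumors was thus not shown for any member by edgeR. In CD8+ cells 0 of 3 members were called, 1 had an unadjusted p under 0.05 (Gata3, 1.44) and DESeq2 called 0, while 0.422% of genes were called. In CD45+CD4-CD8- cells 0 of 3 were called, 1 had an unadjusted p under 0.05 (Gata3, 1.94) and DESeq2 called 1, and edgeR called 0 of 14871 genes (0%).

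The CD45+CD4-CD8- cells differed by tissue in both genotypes. In WT mice 2 of 3 members tested were called higher in tumors, where 21.9% of genes were: Areg by 2.60 (log2, SE 0.662, adjusted p = 0.00784) and Il1rl1 by 1.76 (0.466, adjusted p = 0.00945, edgeR). In Yap-cKO mice all 3 were called higher, where 21.8% of genes were: Areg by 3.56 (0.394, adjusted p = 2.16e-05), Il1rl1 by 3.09 (0.565, adjusted p = 0.0008) and Gata3 by 1.26 (0.254, adjusted p = 0.00153, edgeR). WT Gata3 differed by -0.71 (0.344, adjusted p = 0.107). In WT CD8+ cells 0 of 3 members were called by edgeR or DESeq2, with 2 at an unadjusted p under 0.05, while 37.7% of genes were called. In Yap-cKO CD8+ cells Il1rl1 was the 1 member called of 3, by 1.67 (0.518, adjusted p = 0.0439, edgeR), where 10.9% of genes were called higher.

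Among the sorted populations, the type 2 genes had their highest means over both genotypes in CD4+ cells. In TILs, with genotype as a term and 8 libraries per population, Gata3, Il1rl1 and Areg were called lower in CD8+ than in CD4+ cells, where 1.67% of 15198 genes were called lower. Il4, Il5 and Il13 were called lower too, but passed the count filter only through the CD4+ libraries, so their calls are no support. Il1rl1 was lower by 4.27 on the log2 scale (SE 0.682, adjusted p = 0.00114), Areg by 4.22 (0.643, adjusted p = 0.000711), Il4 by 5.54 (0.596, adjusted p = 2.38e-05) and Gata3 by 1.99 (0.298, adjusted p = 0.000611, edgeR). Il5 held 2 counts in the 8 CD8+ TIL libraries and 7165 in the CD4+ ones, a pooled ratio of 3492 (95% exact interval 966 to 28837, counting error only). Without Yap-cKO replicate 1 of the CD4+ TILs 1357 counts remained and the ratio was 745 (206 to 6160), a setting chosen after the data were seen. Il13 held 8 against 447 counts. Against CD45+CD4-CD8- cells of tumors 4 members were called lower, where 18.4% of genes were, and 6 with the replicate block. They were Gata3 (lower by 4.59), Il5 (by 5.37), Il13 (by 4.48) and Il1rl1 (by 2.28), while Il4 and Areg were lower by 1.47 and 1.39 without passing the test. Il5 and Il13 passed the count filter there only through CD4+ libraries. The libraries overlapped for all members but Gata3. Of 8 CD4+ TIL libraries, those above all CD45+CD4-CD8- TIL libraries numbered 0 for Il4, 3 for Areg and Il13, and 4 for Il5 and Il1rl1. Mean Areg was 26.6 CPM in WT CD4+ TILs and 30.9 CPM in Yap-cKO CD45+CD4-CD8- TILs. In TDLNs 4 members were tested and called lower in CD8+ than in CD4+ cells, of which Il4 passed the filter only through the CD4+ libraries, where 3.6% of genes were, and the same number in CD45+CD4-CD8- cells, where 13.4% were, Il4 again through the CD4+ libraries. Gata3 showed the smallest of these CD8 differences in TDLNs, lower by 1.01 (SE 0.181).

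Over the 12 groups, each member had its highest mean in Yap-cKO CD4+ TILs. For Gata3 the mean was 249 ± 109.5 CPM (SD, n = 4), followed by WT CD4+ TDLN cells at 73.5 ± 22.4 CPM, whose range did not overlap with it. The next groups in the order, Yap-cKO CD4+ TDLN cells at 69.6 ± 16.3 and WT CD4+ TILs at 65.9 ± 31.2 CPM, overlapped with their neighbours. Of the 11 pairs of neighbouring groups in each member's order, 10 or 11 overlapped, so most positions are not distinct. The mean of Il5 in Yap-cKO CD4+ TILs was 103 ± 161 CPM, an SD above its mean.

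The genes whose log2 CPM followed each member most closely over the 48 libraries were taken as the 3 with the highest Pearson r. Ctla4 (0.96), Fbxo27 (0.93) and Icos (0.93) followed Gata3. Il2ra (0.90), Tnfrsf8 (0.88) and Ccr3 (0.82) followed Il1rl1. Tnfrsf8, Cish and Fam110a led for both Areg (0.90, 0.86 and 0.84) and Il4 (0.82, 0.81 and 0.79). Cyp11a1, which encodes the enzyme that starts steroid synthesis, was among the nearest 3 of both Il5 (0.84) and Il13 (0.82), but its rank correlations (Spearman's rho) were only 0.40 and 0.43, at a mean of 32.4 CPM in Yap-cKO CD4+ TILs. The libraries share groups and sources, so these values describe a pattern and carry no test.

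Other genes of the type 2 pathway were followed in a list of 54 cytokines, transcription factors, receptors and neighbours of the chromosome 11 cluster. In CD4+ TILs, 44 were tested, 4 were called higher and 2 lower, where 1.36% of all genes were called higher and 6.66% lower. The median log2 fold change of the list was 1.02, against 0.14 for all genes. Those higher were Il10 (1.93, adjusted p = 0.0365), the cytokine of many regulatory cells, Csf1 (1.32, adjusted p = 0.0365), a macrophage growth factor, Pparg (2.19, adjusted p = 0.0225), a nuclear receptor, and Ccr8 (1.73, adjusted p = 0.0238), a chemokine receptor of regulatory T and T helper 2 cells (edgeR). Pparg was at 7.72 to 10.2 CPM in WT and at 9.93 to 71.6 CPM in Yap-cKO libraries. The 2 lower genes were Il13ra1 (-2.12, adjusted p = 0.00913), a subunit of the interleukin-13 receptor, and Sept8 (-1.22, adjusted p = 0.0412), a neighbour of the cluster. By class, 2 of 3 other cytokines tested were called higher, 1 of 19 transcription factors was called higher, 1 of 17 receptors was called higher and 1 lower, and 1 of 5 neighbours was called lower.

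In CD8+ TILs, 45 genes of the list were tested, 3 were called higher and 2 lower, where 3.03% of all genes were called higher and 9.14% lower. Il9r (2.29, adjusted p = 0.0316), Il7r (1.87, adjusted p = 0.0245) and Ccr4 (2.80, adjusted p = 0.0303), receptors for interleukin-9, interleukin-7 and chemokines, were higher (edgeR). Il13ra1 (-2.22, adjusted p = 0.0335) and Sept8 (-1.77, adjusted p = 0.0315) were lower, as in CD4+ TILs. In CD45+CD4-CD8- cells 46 were tested and 0 called by edgeR or DESeq2, where 0.991% of all genes were called, with 10 at an unadjusted p under 0.05. In the interaction of tissue and genotype in CD4+ cells, 3 of 45 genes were called higher, where 0.205% of all genes were: Ccr8 (2.97, adjusted p = 0.0129), Il10 (2.90, adjusted p = 0.0433) and Csf1 (2.12, adjusted p = 0.0486, edgeR). In CD4+ TILs, Ccr8 was at 59.4 to 172 CPM in WT and at 255 to 439 CPM in Yap-cKO mice.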

How the data were processed

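RNA from 48 libraries, 4 in each of 12 groups taken from the sample labels, was examined. The authors trimmed reads with Trimmomatic, checked them with FastQC and quantified transcripts with Salmon 0.9.1 on GRCm38 (tools per the labels). They deposited for each library an expected count per transcript, without normalization. The deposited TPM values come from the authors' Salmon run, which corrects for the length of a transcript and the depth of the library, and the deposited effective length is in bases.

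Transcripts were matched to GENCODE M21 (111787 of 112092), which left 0.0488% to 0.18% of counts unmatched, and expected counts were summed for 34932 genes and rounded to whole numbers. CPM are scaled by TMM over all 48 libraries, while fold changes come from fits of the libraries compared. A minimum of 10 counts in 4 libraries was set for a gene to enter edgeR 4.0.16 (R 4.3.3) (TMM, quasi-likelihood F test, Benjamini-Hochberg adjustment over all genes tested). Genotype was the only term in genotype comparisons, tissue in tissue comparisons, and genotype was added between populations. The test was checked on simulated counts that gave every gene the same fixed spread, so the check does not cover spreads as wide as that of Il5. Recovery of the changed genes was not required there of the interaction or of DESeq2. Exact intervals and the limit of 3 counts cover counting error only, and reads carried no molecular identifiers. Alternatives were DESeq2 1.42.0, no filter, length offsets, a replicate block, scaling on 15 T-lineage genes, a fit of all libraries, a Y-linked covariate, no fold threshold, and leaving out single libraries. WT replicate 4 alone and ratios to Foxp3 and to marker sums, with their shares over all genes, were added after the data were seen.

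The members, gene lists and tests were chosen with earlier results of these data known. Named were the 6 members, pathway genes called in a TIL genotype comparison (at most 8 per direction) and the 3 genes with the nearest pattern to each member (log2 CPM with a pseudocount of 0.5), with genes that check sorts and labels. Every same-numbered pair of CD8+ and CD4+ TIL libraries deviated together (correlations of 0.113 to 0.715 in WT and 0.156 to 0.619 in Yap-cKO mice). In WT mice 3 of the 4 libraries correlated best with their own number. The same-numbered pairs of CD45+CD4-CD8- with CD4+ TILs also did so in WT mice (0.209 to 0.487), as did CD8+ with CD4+ TDLN cells (0.381 to 0.788). In Yap-cKO mice these ran from -0.194 to 0.314 and from -0.0791 to 0.675. Replicate numbers did not pair the genotypes or tissues by this measure. Whether same-numbered libraries share a mouse is not stated. In 0 of 72 pairs within a group were libraries identical. Promoters are from RefSeq and gene positions from GENCODE M21, both 1-based. Tables that mix samples numbered 0.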

Additional observations from a re-analysis of the deposited data

Results flagged for a closer look

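In groups of 4 libraries, a library was singled out where its gap to the nearest other one, as a share of the group's range, exceeded Dixon's 95% critical value, which chance gives in about 1 group in 20. This held in 5 of 58 groups of members, and all 5 were Yap-cKO replicate 1 of a tumor sort. In CD4+ TILs it was Il5 at 341.5 CPM, with the next library at 51.5 CPM. In CD45+CD4-CD8- cells it was Il4 at 8.55 CPM (next 0.924), Il5 at 3.01 CPM (next 0.528), Il13 at 0.615 CPM (next 0.066) and Il1rl1 at 15.3 CPM (next 9.96). These 5 values come from 2 libraries, so they are not separate observations.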

How the results depend on the processing

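For the 6 members in the genotype comparison of CD4+ TILs, the 5 called became 1 with the replicate block (only Il13, log2 fold change 4.38, adjusted p = 0.0298, edgeR), 3 with T-lineage scaling, 0 with the Y-linked covariate, 0 with WT replicate 4 alone and 0 to 5 without a library. The numbers do not pair the genotypes by the check used, and a call lost under the block is not read as a smaller difference. T-lineage scaling moved the median of all genes from 0.14 to -1.15 and turned Il4 to -0.016. It called 17 genes higher and 3591 lower, against 193 and 946 in the fit reported and 582 and 1560 by DESeq2. The single member called in CD8+ TILs was lost (0) with the block, T-lineage scaling, the Y-linked covariate and WT replicate 4 alone, and that in CD45+CD4-CD8- TILs with the block, the fit of all libraries, the covariate and WT replicate 4 alone (0). Both ranged from 0 to 1 without a library. The losses with the covariate, and with the block in CD8+ and CD45+CD4-CD8- TILs, follow the whole comparison and say nothing about the members. The covariate called 2 of 14205 genes in CD4+ TILs and 1 in each other tumor sort. The block called 1 gene in CD8+ TILs and 1 in CD45+CD4-CD8- TILs. WT replicate 4 alone leaves a single WT library, so a loss there says nothing either. Other settings still called genes. These were 767 with the block in CD4+ TILs (91 higher), 5713 with T-lineage scaling in CD8+ TILs (6 higher) and 20 in the fit of all libraries in CD45+CD4-CD8- TILs (3 higher).

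For pathway genes in CD4+ TILs, the 6 called became 10 with no filter, 3 with the block, 3 with T-lineage scaling, 18 by DESeq2, 0 with WT replicate 4 alone and 1 to 19 without a library. In CD8+ TILs the 5 became 0 with the block, 12 by DESeq2, 0 with WT replicate 4 alone and 0 to 16 without a library. Between tissues, the 0 members called in WT CD4+ cells became 1 with no filter, 1 with the block, 4 with T-lineage scaling and 0 to 1 without a library, and the 0 in WT CD8+ cells became 2 with T-lineage scaling and 0 to 2 without a library. The 6 in Yap-cKO CD4+ cells ranged from 4 to 6. The 1 in Yap-cKO CD8+ cells became 0 with no filter, the block or the fit of all libraries, 3 with T-lineage scaling, 2 by DESeq2 and 0 to 1 without a library. CD45+CD4-CD8- against CD4+ TILs ranged from 4 to 5 and CD8+ against CD4+ TDLN cells from 3 to 4. The interaction in CD4+ cells (0) became 3 with no filter, 1 with the block, 1 with T-lineage scaling, 3 in the fit of all libraries, 4 by DESeq2 and 0 to 4 without a library. That in CD8+ cells ranged from 0 to 1, and that in CD45+CD4-CD8- cells (0) was 1 by DESeq2. Apart from construction, the cause of these changes was not tested. The block changed no call between CD8+ and CD4+ TILs, where same-numbered libraries deviated together.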
